A study of Homo sapiens with 4 samples.

Results

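The class I antigen presentation genes described here were 9 genes chosen by name: HLA-B, HLA-C, HLA-E, B2M, TAP1, TAP2, TAPBP, ERAP1 and NLRC5, out of 50868 genes in the deposited table. All 9 had 1 row each, and all 9 passed the filter of a mean of at least 1 FPKM (fragments scaled to gene length and to library size) that 11004 genes passed. Messenger RNA was sequenced in KBM5 cells, a human chronic myeloid leukemia line that carries the BCR-ABL fusion kinase, after DSF, IM or both (IM-DSF), and in control cells (CTR), with 1 library for each of the 4 groups. The labels do not spell out the codes, read here as disulfiram (DSF), a drug that inhibits aldehyde dehydrogenase and binds copper, and imatinib (IM), a BCR-ABL inhibitor. They give no dose, time or number of cultures, and every group is the same cell line. With 1 library a group there is no replicate check, so no difference carries a p-value and each one sets 1 library against another, and each 95% interval of a ratio covers counting error only.

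Class I molecules show fragments of a cell's own proteins to CD8+ T cells. A heavy chain (such as HLA-B or HLA-C, and the less variable HLA-E, which is read by the NKG2A receptor of natural killer cells) pairs with the light chain beta-2-microglobulin, encoded by B2M. Peptides cut by the proteasome are pumped into the endoplasmic reticulum by the TAP1-TAP2 transporter, trimmed by the aminopeptidase ERAP1 and loaded with the help of tapasin, encoded by TAPBP. Interferon gamma raises most of these genes, and NLRC5 is a transcriptional activator of class I genes that acts with RFX, NF-Y and CREB family proteins at their promoters.

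The promoters of the genes that differed between libraries in unlike ways are shown first, because HLA-B and HLA-C share most of theirs. RefSeq promoter windows of 300 bases (250 before and 50 after the gene start, build GRCh38.p14) matched 7 of the 9 genes by symbol, with 9 windows, since TAP1 and ERAP1 have 2 each. Each is given 5' to 3' on the strand of the gene, and capitals mark matches, on either strand, to 4 motifs: the core of the interferon response element (GAAANNGAA), the CCAAT box bound by NF-Y (CCAAT), an NF-kB site (GGGATTCCC) and the cyclic AMP response half-site bound by CREB and ATF proteins (TGACG). HLA-B is at chr6:31357130-31357429 (minus strand), HLA-C at chr6:31272043-31272342 (minus strand), TAPBP at chr6:33314029-33314328 (minus strand) and B2M at chr15:44711267-44711566 (plus strand).
HLA-B: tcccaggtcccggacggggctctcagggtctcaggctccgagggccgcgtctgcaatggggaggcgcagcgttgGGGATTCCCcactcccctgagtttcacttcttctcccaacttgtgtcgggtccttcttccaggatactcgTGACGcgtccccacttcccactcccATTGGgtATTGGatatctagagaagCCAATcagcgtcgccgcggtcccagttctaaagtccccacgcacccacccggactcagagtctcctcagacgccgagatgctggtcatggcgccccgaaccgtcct
HLA-C: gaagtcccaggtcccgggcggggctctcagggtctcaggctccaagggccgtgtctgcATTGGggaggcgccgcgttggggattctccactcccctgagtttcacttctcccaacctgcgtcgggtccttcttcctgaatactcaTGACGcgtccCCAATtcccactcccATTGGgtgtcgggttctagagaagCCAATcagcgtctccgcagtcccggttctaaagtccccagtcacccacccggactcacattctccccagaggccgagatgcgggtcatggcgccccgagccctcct
TAPBP: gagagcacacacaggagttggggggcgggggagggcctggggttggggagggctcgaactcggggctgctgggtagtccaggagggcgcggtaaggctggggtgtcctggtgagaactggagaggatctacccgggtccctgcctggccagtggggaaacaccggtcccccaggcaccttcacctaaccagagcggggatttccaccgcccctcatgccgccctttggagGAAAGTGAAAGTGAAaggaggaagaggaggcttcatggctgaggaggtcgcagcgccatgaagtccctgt
B2M: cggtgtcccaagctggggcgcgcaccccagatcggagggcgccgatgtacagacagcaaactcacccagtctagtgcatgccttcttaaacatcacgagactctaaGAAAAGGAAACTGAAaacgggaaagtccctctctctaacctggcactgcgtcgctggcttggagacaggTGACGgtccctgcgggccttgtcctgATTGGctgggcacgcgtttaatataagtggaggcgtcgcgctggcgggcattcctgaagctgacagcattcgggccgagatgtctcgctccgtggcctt

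Aligned end to end, the HLA-B and HLA-C windows were identical in 269 of 304 columns (88.5%), while HLA-B and B2M were identical in 49.6%. The interferon response core was in 5 of the 9 windows, of 5 genes (B2M, TAP1, TAP2, TAPBP and ERAP1), against 8.11% of all 35116 promoter windows. In B2M, TAP1 and TAPBP it occurred as 2 matches that overlap each other. The CCAAT box was in 5 of the 9 windows (B2M, HLA-B, HLA-C, TAP1 and ERAP1), against 34.6% of all windows, and the half-site TGACG in 4 (B2M, HLA-B, HLA-C and TAP2), against 24.6%. The other windows of TAP1 and ERAP1 held none of the 4 motifs. HLA-B alone of the 7 genes held the exact NF-kB letters, which 0.384% of all windows hold, and HLA-C reads gggattctc in the same stretch. HLA-B and HLA-C had no match to the interferon response core, but both read gagtttcacttct. On the other strand, this stretch holds the GAA and GAAA parts of that core in swapped order. Other forms of the 4 motifs, such as this one, were not searched, so a window without a match can still hold a site. These matches describe letters in the windows and nothing about binding in these cells.

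Most of the 9 genes were higher in the treated libraries than in CTR. Their FPKM summed to 182 in DSF, 208 in IM, 230.4 in IM-DSF and 134 in CTR. HLA-B, HLA-E and TAPBP reached the size rule used throughout, a difference of at least 1 unit in log2(FPKM + 1), in IM-DSF against CTR, and TAPBP also in IM against CTR. TAP2 and NLRC5 did not follow the others: TAP2 was lower with IM, and NLRC5 was close to CTR in IM and IM-DSF. On this scale the changes of low genes are understated, and in bulk RNA fewer cells that express a gene and less RNA per cell cannot be told apart.

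**Figure D1:**
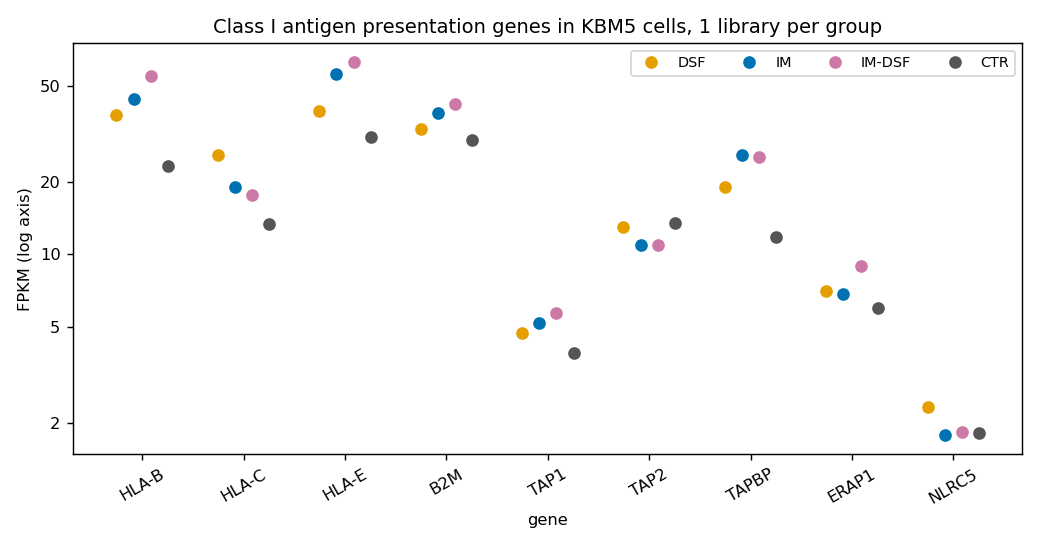
FPKM (log axis) of the 9 genes in each library, 1 point per library, in the order DSF, IM, IM-DSF, CTR. CTR is the lowest of the 4 points for 7 genes; TAP2 is highest in CTR (13.5 FPKM) and NLRC5 is lowest in IM (1.78 FPKM).

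By the size rule, 0 of the 9 genes were higher in DSF than in CTR, where 0.545% of the 11004 genes were, and 1.12% differed in either direction. In IM against CTR 1 of 9 was higher, where 1.54% of all genes were higher and 2.43% differed in either direction. In IM-DSF against CTR 3 of 9 were higher, where 2.54% of all genes were higher and 4.28% differed in either direction. None of the 9 was lower by the rule in these contrasts, and none passed it in IM-DSF against IM (1.74% of all genes in either direction) or IM-DSF against DSF (2.37%). The median log2 difference of the 9 genes was 0.24 for DSF, 0.35 for IM and 0.48 for IM-DSF, each against CTR, where the medians over all 11004 genes were 7.47e-05, 0.024 and 0.021. These 3 contrasts share the CTR library. The genes were proposed with earlier results of these data known, so the counts describe them and test nothing.

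Among the heavy chains, HLA-E had the highest level in every library, and the largest ratio to CTR was that of HLA-C in DSF and that of HLA-B in IM and IM-DSF. HLA-B (ENSG00000234745; GRCh38.p14 chromosome 6, 31353872 to 31357188) had 38.0 FPKM in DSF, 44.2 in IM, 54.9 in IM-DSF and 23.2 in CTR. All 3 treated libraries were above CTR and each step of the order IM-DSF, IM, DSF, CTR was larger than counting error. The ratio to CTR was 1.64 in DSF (95% interval 1.38 to 1.94), 1.90 in IM (1.62 to 2.24) and 2.36 in IM-DSF (2.01 to 2.79). The log2 difference of 1.21 in IM-DSF passed the size rule.

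HLA-E (ENSG00000204592; chromosome 6, 30489467 to 30494205) had 39.2 FPKM in DSF, 56.0 in IM, 62.8 in IM-DSF and 30.8 in CTR. The order was the same as for HLA-B, with IM and IM-DSF well above DSF and CTR, and no neighbours in it lay within counting error of each other. The ratio to CTR was 1.27 in DSF (1.18 to 1.38), 1.82 in IM (1.70 to 1.955) and 2.04 in IM-DSF (1.90 to 2.20). Its log2 difference of 1.006 in IM-DSF was just past the size rule, and was 0.98 with median-of-ratios or trimmed-mean scaling factors, under which the call ended.

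HLA-C (ENSG00000204525; chromosome 6, 31268749 to 31272130) had another order. It had 25.7 FPKM in DSF, 19.04 in IM, 17.6 in IM-DSF and 13.3 in CTR. DSF was the highest library, and IM and IM-DSF lay within counting error of each other (IM-DSF at 0.927 times IM, 0.803 to 1.07). The ratio to CTR was 1.93 in DSF (1.67 to 2.23), 1.43 in IM (1.23 to 1.66) and 1.33 in IM-DSF (1.13 to 1.55), and none of the log2 differences (0.90, 0.49 and 0.38) passed the size rule. HLA-C in IM-DSF was also below DSF, at 0.687 times (0.598 to 0.785), where HLA-B was at 1.45 times (1.26 to 1.66) and HLA-E at 1.60 times (1.498 to 1.71).

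HLA-B, HLA-C and HLA-E together summed to 103 FPKM in DSF, 119 in IM, 135 in IM-DSF and 67.3 in CTR. HLA-C took 24.99% of that sum in DSF, 15.97% in IM, 13.04% in IM-DSF and 19.8% in CTR. HLA-B took 36.9% in DSF, 37.1% in IM, 40.6% in IM-DSF and 34.5% in CTR. HLA-C had its highest share in DSF and its lowest in IM-DSF, while the share of HLA-B was lowest in CTR. HLA-B and HLA-C also overlap on 1 strand in GENCODE 29, though not at the deposited coordinates. The heavy chain genes are near copies of each other and vary between people, and how reads of the alleles of KBM5 that differ from the reference were placed is not given in the sources used here. The pseudogene HLA-H, another copy, had 4.65 FPKM in DSF, 3.75 in IM, 5.65 in IM-DSF and 3.08 in CTR, and a transfer of reads between copies was not tested.

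**Figure D2:**
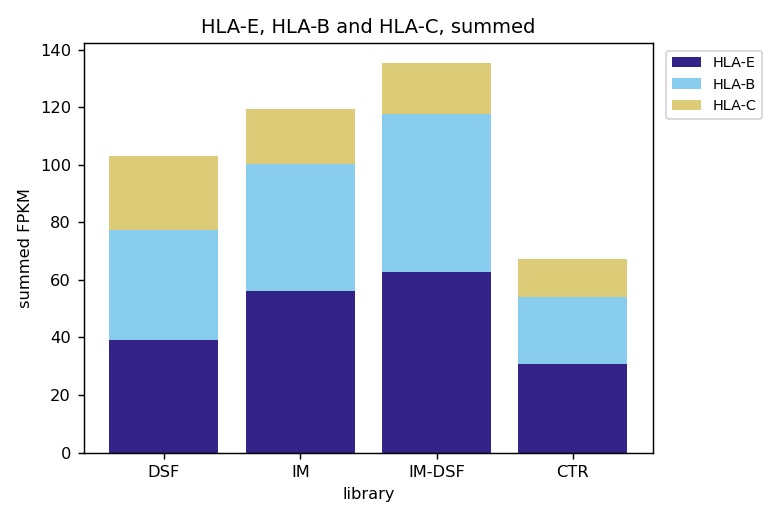
FPKM of HLA-E, HLA-B and HLA-C stacked for each library, 1 bar per library. The bar reaches 103 in DSF, 119 in IM, 135 in IM-DSF and 67.3 in CTR, and the HLA-C segment is tallest in DSF.

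B2M, the light chain shared by all class I molecules (ENSG00000166710; chromosome 15, 44711477 to 44718877), differed less from CTR than HLA-B and HLA-E did. It had 33.2 FPKM in DSF, 38.5 in IM, 42.1 in IM-DSF and 29.9 in CTR. The order was that of HLA-B, but DSF and CTR were within counting error of each other, as were IM-DSF and IM. Both verdicts depend on the gene length used. With merged exon lengths the intervals excluded 1 (1.05 to 1.17 for DSF against CTR, 1.04 to 1.15 for IM-DSF against IM). The ratio to CTR was 1.11 in DSF (0.972 to 1.26), 1.29 in IM (1.14 to 1.46) and 1.41 in IM-DSF (1.24 to 1.60). The summed FPKM of these 3 heavy chains was 3.10 times that of B2M in DSF, 3.09 times in IM, 3.21 times in IM-DSF and 2.25 times in CTR.

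The peptide loading genes were split. TAPBP (ENSG00000231925; chromosome 6, 33299694 to 33314387), the tapasin gene, had 19.02 FPKM in DSF, 25.9 in IM, 25.4 in IM-DSF and 11.8 in CTR. All treated libraries were above CTR, and IM and IM-DSF were within counting error of each other and above DSF. The ratio to CTR was 1.62 in DSF (1.39 to 1.88), 2.20 in IM (1.92 to 2.53) and 2.16 in IM-DSF (1.87 to 2.499). The log2 differences in IM (1.07) and IM-DSF (1.05) passed the size rule under every alternative setting tried.

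The genes of the peptide transporter lay on opposite sides of CTR with IM. TAP1 (ENSG00000168394; chromosome 6, 32845209 to 32853978) had 4.73 FPKM in DSF, 5.17 in IM, 5.72 in IM-DSF and 3.91 in CTR. It had the order of HLA-B, but no neighbours in it were further apart than counting error, which is wide here (121 to 175 approximate fragments a library). With merged exon lengths the interval of DSF against CTR did exclude 1 (1.03 to 1.42). IM was 1.32 times CTR (1.05 to 1.69) and IM-DSF 1.46 times (1.15 to 1.88). TAP2 (ENSG00000204267; chromosome 6, 32821833 to 32838780) had 13.0 FPKM in DSF, 10.9 in IM, 11.0 in IM-DSF and 13.5 in CTR. DSF was within counting error of CTR (0.968 times, 0.890 to 1.05), and both libraries with IM lay below it, at 0.812 times CTR in IM (0.744 to 0.885) and 0.815 times in IM-DSF (0.742 to 0.894). The ratio of TAP1 to TAP2 FPKM was 0.363 in DSF, 0.473 in IM, 0.521 in IM-DSF and 0.290 in CTR. TAP2 overlaps AL669918.1 on its strand, which had at most 0.229 FPKM, so its value is uncertain by how shared reads were divided.

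ERAP1 (ENSG00000164307; chromosome 5, 96760810 to 96808100), the trimming enzyme, had 7.04 FPKM in DSF, 6.84 in IM, 8.96 in IM-DSF and 5.96 in CTR. IM-DSF stood above the other libraries, DSF and IM were within counting error of each other, and CTR was lowest. The ratio to CTR was 1.18 in DSF (1.04 to 1.34), 1.15 in IM (1.012 to 1.304) and 1.503 in IM-DSF (1.33 to 1.71). ERAP1 also overlaps CAST and AC008906.1 on the opposite strand, and the use of strand in counting is not given. CAST had between 0.692 and 0.977 FPKM. On their opposite strands, TAP1 overlaps PSMB8-AS1 (0.333 to 0.396 FPKM) and HLA-B overlaps AL671883.2.

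NLRC5 (ENSG00000140853; chromosome 16, 56989485 to 57083531), the activator of class I transcription, was the lowest of the 9 genes. It had 2.33 FPKM in DSF, 1.78 in IM, 1.83 in IM-DSF and 1.82 in CTR. Only DSF stood apart, at 1.28 times CTR (1.05 to 1.57), and IM-DSF and IM were within counting error of CTR, at 1.006 times (0.806 to 1.26) and 0.979 times (0.794 to 1.21).

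**Figure D3:**
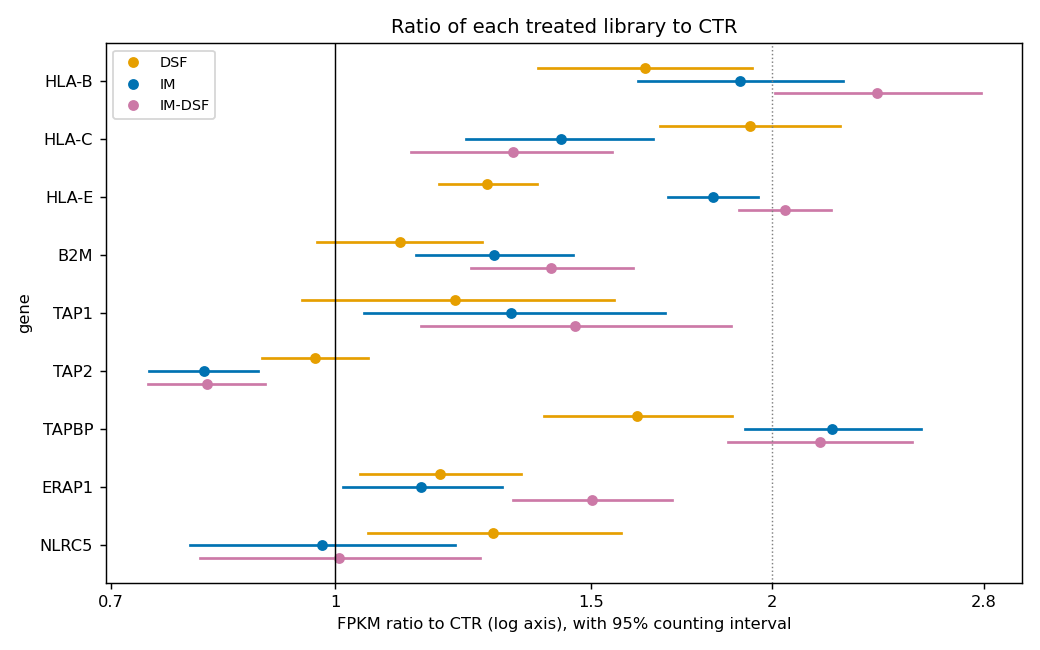
FPKM ratio of DSF, IM and IM-DSF to CTR (log axis) for each gene, with the 95% counting interval as a line; the solid line marks 1 and the dotted line 2. HLA-B, HLA-E and TAPBP lie at 2.04 to 2.36 in IM-DSF, TAP2 at 0.815 and NLRC5 at 1.006, and HLA-C is the heavy chain whose largest ratio is in DSF (1.93).

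The combination was also set against each agent alone. Intervals were computed for named genes only, so no share over all genes can be set beside those that exclude 1. In IM-DSF against IM, the intervals above 1 were those of ERAP1 (1.31 times, 1.16 to 1.47), HLA-B (1.24 times, 1.09 to 1.42) and HLA-E (1.12 times, 1.06 to 1.19). In IM-DSF against DSF, they were those of HLA-E, HLA-B, TAPBP (1.34 times, 1.18 to 1.51), ERAP1 (1.27 times, 1.13 to 1.43) and B2M (1.27 times, 1.12 to 1.44). The intervals below 1 there were those of HLA-C, NLRC5 (0.783 times, 0.634 to 0.964) and TAP2 (0.842 times, 0.766 to 0.923). The median log2 difference of the 9 was 0.12 in IM-DSF against IM and 0.31 in IM-DSF against DSF, where all genes had -0.0013 and 0.013.

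In IM-DSF, 2 of the 9 genes were above the sum of both single-agent differences and 7 below it, where 48.4% of all 11004 genes were above it. A low CTR value raises both single-agent differences and so lowers this departure, and CTR was the lowest library for 7 of the 9. HLA-C departed from that sum by -1.004 log2 units, past the size rule, which 3.06% of all genes passed in either direction; the call ended with TPM rescaling and with both kinds of scaling factors. If the DSF and IM ratios multiplied, HLA-C would have 36.8 FPKM in IM-DSF, and it had 17.6 (0.480 times that product, 0.394 to 0.585). TAPBP had 25.4 FPKM where the product gives 41.9 (0.607 times, 0.505 to 0.731), and HLA-B 54.9 where it gives 72.2 (0.761 times, 0.617 to 0.939). For B2M (0.988 times, 0.831 to 1.17), TAP1, TAP2, NLRC5 and ERAP1 the interval included 1, and HLA-E was at 0.881 times (0.799 to 0.970). These intervals are normal approximations on the log scale from the approximate fragment numbers.

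**Figure D4:**
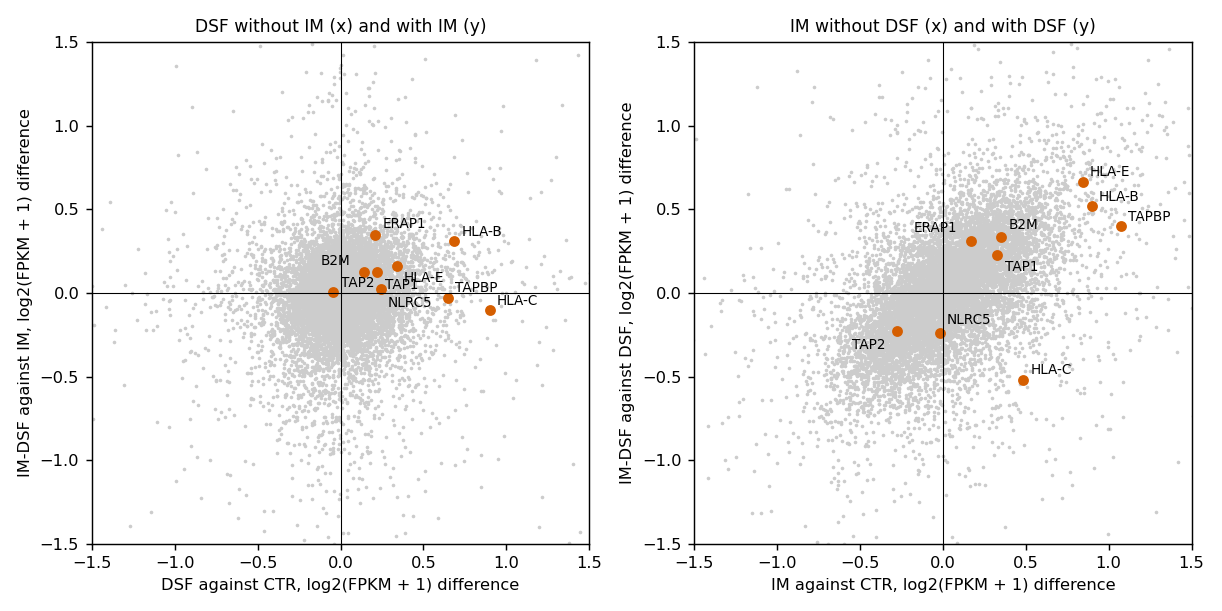
Log2(FPKM + 1) differences for DSF without IM and with IM (left) and for IM without DSF and with DSF (right), with the 9 genes in orange and all other genes past the filter in grey; genes beyond 1.5 log2 units are not drawn. HLA-C lies at 0.90 and -0.10 on the left and 0.49 and -0.52 on the right, while HLA-B and HLA-E are above 0 on all 4 axes.

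The other listed genes, of the class I pathway or class I-like, were mostly near CTR. The list is broader than peptide presentation, since it includes the class I-like genes MR1, CD1D, MICA and MICB. Their log2 differences in IM-DSF against CTR were 0.77, 0.31, -0.32 and -0.25. Of 24 further genes, 17 passed the filter and 0 passed the size rule in any of the 5 contrasts. This count depends on the scale, since MR1 passed in IM-DSF against CTR with a pseudocount of 0.1 (1.18) and with TPM rescaling (1.07), and in IM-DSF against IM with that pseudocount (1.03). In IM-DSF against CTR 8 were above and 9 below 0, with a median of -0.046, against 0.021 for all genes. The largest differences from CTR were those of MR1, which presents vitamin metabolites (1.31 FPKM in DSF, 1.14 in IM, 2.44 in IM-DSF and 1.02 in CTR), and PSMB10, an immunoproteasome subunit (9.03 FPKM in DSF, 10.9 in IM, 12.4 in IM-DSF and 7.37 in CTR). TAPBPL, a tapasin homologue that edits peptides, had 2.70 FPKM in DSF, 3.31 in IM, 3.57 in IM-DSF and 2.22 in CTR. PSME2, a subunit of the interferon-inducible proteasome activator, had 5.80 FPKM in DSF, 6.25 in IM, 4.60 in IM-DSF and 6.52 in CTR, and its intervals against CTR included 1. The immunoproteasome subunit PSMB8, named after its values were seen, went the other way from PSMB10, with 26.2 FPKM in DSF, 24.4 in IM, 25.03 in IM-DSF and 27.3 in CTR, and its intervals against CTR included 1.

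Most class II genes were barely detected. Of 13 class II pathway genes 3 passed the filter, and the other 10 were under 1 FPKM in every library. CD74, the invariant chain, had 4.97 FPKM in DSF, 6.37 in IM, 7.36 in IM-DSF and 2.58 in CTR, and its log2 differences in IM (1.04) and IM-DSF (1.22) passed the size rule. CTSS, the protease that cuts the invariant chain, had 8.55 FPKM in DSF, 10.2 in IM, 14.5 in IM-DSF and 11.4 in CTR. HLA-DOB, which lies beside TAP2, had 1.09 FPKM in DSF, 0.626 in IM, 0.950 in IM-DSF and 1.81 in CTR. It too overlaps another gene on its strand, so its value is uncertain by how shared reads were divided.

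The list of class I transcription regulators pools activators with EZH2, EED and SUZ12, which belong to a silencing complex. Its counts therefore mix genes of opposite action. In IM-DSF against CTR 52.1% of all genes were above 0 and 4.28% passed the size rule in either direction. Of 17 measured regulators 9 were above and 8 below 0 there (median 0.055, all genes 0.021), and 1 passed the size rule. That was STAT2, a factor of type I interferon signalling, with 5.42 FPKM in DSF, 8.38 in IM, 10.3 in IM-DSF and 4.53 in CTR (2.28 times in IM-DSF, 1.92 to 2.71). IRF1, an activator of class I and TAP1, had 2.17 FPKM in DSF, 2.81 in IM, 3.16 in IM-DSF and 2.09 in CTR, and IRF2 had 6.21 FPKM in DSF, 9.02 in IM, 8.20 in IM-DSF and 6.61 in CTR. EZH2 is the histone methyltransferase of that complex, which silences class I genes in other tumours. It had 14.1 FPKM in DSF, 12.6 in IM, 10.6 in IM-DSF and 15.04 in CTR. EED and SUZ12 were also below CTR in IM-DSF (log2 differences -0.35 and -0.19).

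Of 9 measured genes of interferon receptors, their kinases and the inhibitors PTPN2 and SOCS3, 7 were above 0 in IM-DSF against CTR. The median was 0.19, and 1 passed the size rule. PTPN2 was at 0.037 and SOCS3 at -0.57 in that contrast. Of all 11004 genes 52.1% were above 0 there, with a median of 0.021, and 4.28% passed the rule in either direction. IFNGR1, the ligand-binding chain of the interferon gamma receptor, had 15.02 FPKM in DSF, 15.6 in IM, 18.0 in IM-DSF and 6.82 in CTR, and its log2 differences of 1.03, 1.09 and 1.28 passed the rule in all 3. The kinases JAK2 (4.07 FPKM in DSF, 5.30 in IM, 6.04 in IM-DSF and 3.15 in CTR) and TYK2 (8.37 FPKM in DSF, 10.5 in IM, 11.3 in IM-DSF and 6.74 in CTR) had the same order below the rule. SOCS3, a feedback inhibitor of JAK signalling, had 1.08 FPKM in DSF, 0.736 in IM, 0.779 in IM-DSF and 1.65 in CTR.

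Of 13 measured genes of class I turnover and quality control, 10 were above 0 in IM-DSF against CTR (median 0.19), where 52.1% of all genes were. By the size rule 0 differed there, against 4.28% of all genes. MARCHF9 did pass there with a pseudocount of 0.1 (1.34) and with TPM rescaling (1.16). RNF185, a ubiquitin ligase of the endoplasmic reticulum, had 2.98 FPKM in DSF, 1.06 in IM, 3.32 in IM-DSF and 2.81 in CTR. It passed the rule in IM-DSF against IM (log2 difference 1.07), where IM was the low library and IM-DSF was within counting error of CTR (1.18 times, 0.921 to 1.52). MARCHF9, a membrane ubiquitin ligase that can remove class I from the surface, had 1.35 FPKM in DSF, 2.14 in IM, 1.77 in IM-DSF and 0.642 in CTR. The protease SPPL2B (5.09 FPKM in DSF, 4.85 in IM, 5.33 in IM-DSF and 2.91 in CTR) and EDEM1, a lectin of misfolded glycoprotein disposal (25.4 FPKM in DSF, 32.7 in IM, 37.4 in IM-DSF and 24.9 in CTR), were the other named genes.

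**Figure D5:**
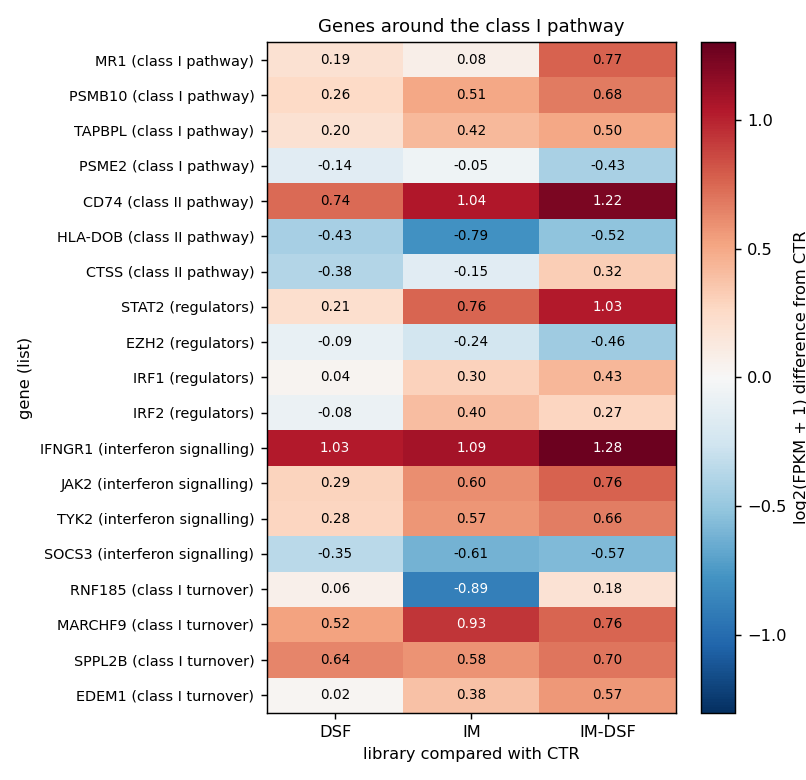
Log2(FPKM + 1) difference from CTR of the named genes around the class I pathway, with columns DSF, IM and IM-DSF and each value printed in its cell; red is above and blue below CTR. IFNGR1, CD74 and STAT2 are the genes that reach 1 log2 unit, and SOCS3, HLA-DOB, EZH2 and PSME2 are below 0 in all 3 columns.

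The genes whose pattern over the 4 libraries was most like the mean of the 9, by root mean square distance of centred log2(FPKM + 1) among 4289 protein-coding genes, were POLG2 (0.0147), GYS1 (0.0263), NAPRT (0.0295), KCTD18 (0.0331) and ATP6AP1 (0.0363). The mean profile of the 9 was 0.038 in DSF, 0.094 in IM, 0.20 in IM-DSF and -0.33 in CTR. With 4 libraries such likeness is a description only.

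Myeloid genes, which mark the lineage of the line, had higher sums in the same libraries. All 8 myeloid markers were measured, and 7 of 8 were above CTR in IM-DSF, where 52.1% of all genes were. By the size rule 0 of 8 were higher for DSF (median log2 difference 0.44), 3 for IM (0.75) and 4 for IM-DSF (0.94), each against CTR. Of all 11004 genes 0.545%, 1.54% and 2.54% were higher in these contrasts, with medians of 7.47e-05, 0.024 and 0.021. The 8 markers summed to 1956 FPKM in DSF, 2511 in IM, 2502 in IM-DSF and 1427 in CTR, mostly PRTN3, ELANE and LYZ. Their part in the class I differences was not tested. Of 6 erythroid markers 0 passed the filter, and 4 (HBA1, HBA2, HBG1 and ALAS2) were listed at 0 in every library. Of 8 lymphoid markers 1, NKG7, passed the filter, at 10.8 FPKM in DSF, 11.9 in IM, 13.3 in IM-DSF and 11.4 in CTR, and CD3E, CD3G and MS4A1 were listed at 0 in every library. Of 6 markers of stromal, endothelial and epithelial cells 1 passed, PECAM1, which myeloid cells also express, at 1.41 FPKM in DSF, 1.95 in IM, 4.23 in IM-DSF and 1.37 in CTR, and EPCAM was listed at 0. These marker levels were not tested against the class I values. The denominators behind the FPKM values, recovered from single-exon genes, were 12.4 M to 15.8 M fragments a library, and the 9 genes had between 121 and 2302 approximate fragments a library.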

How the data were processed

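The authors deposited 1 table of FPKM values with 1 column per library, per the file headers. Per the submitters' processing notes, HISAT2 2.0.4 was used with the build GRCh38.p14; per the labels' protocols, libraries came from a stranded mRNA kit. For the counter, the annotation and the use of strand nothing is stated in the sources used here. Members and lists were chosen with earlier results of these data known. Of the listed genes, 1 pathway gene and 1 erythroid marker are not reported here and were left out of the list counts.

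Differences were computed across all 11004 genes averaging 1 FPKM or more over the 4 libraries as log2(FPKM + 1), with a size rule of 1 log2 unit and no p-value. The named genes are the 9 members, list genes past the size rule or with the largest differences from CTR (up to 4 a list), and the 5 genes most like the members' mean profile, with a mean of at least 5 FPKM and no same-strand overlap. Fragment numbers were approximated from the FPKM, the recovered denominators and the median length of each gene's coding transcripts in GENCODE 29 (50111 identifiers matched). FPKM times length was within 0.05 of a whole multiple of 1 step for 93.7% (DSF) to 98.7% (IM-DSF) of single-exon genes, not for genes of several exons, so no count test was run. Ratio intervals are exact conditional binomial at 95%. With merged exon lengths they are narrower, and 4 of 45 member intervals, all of B2M or TAP1, then no longer include 1. Intervals of PSME2 and PSMB9 (IM-DSF against CTR) and PSMB8 (IM and IM-DSF against CTR) also exclude 1 with these lengths. PCR copies make intervals too narrow. PSMB10, PSMB9, TAPBPL, PSME2 and SPPL2B, like HLA-DOB, each overlap another gene on their strand, so shared reads may affect their values. The difference code was tested on simulated data. Alternatives were 7 planned settings and 1 added after seeing the data. Python 3.11.15, numpy 2.4.6, pandas 2.3.3 and scipy 1.17.1 were used.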

Additional observations from a re-analysis of the deposited data

Results flagged for a closer look

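For 3 of the 9 genes, the difference between libraries had opposite signs without and with the other agent, and none of these differences was tested, since each group is 1 library. HLA-C differed by 0.90 log2 units in DSF against CTR and by -0.10 in IM-DSF against IM. It differed by 0.49 in IM against CTR and by -0.52 in IM-DSF against DSF, a departure from the sum of both agents of -1.004. TAPBP differed by 0.65 in DSF against CTR and by -0.03 in IM-DSF against IM, a departure of -0.68, and the second value was 0.02 with TPM rescaling. TAP2 differed by -0.04 in DSF against CTR and by 0.01 in IM-DSF against IM, a departure of 0.0493; both ratio intervals included 1.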

How the results depend on the processing

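Over the 5 contrasts, the 9 genes kept the sign of their difference under the alternatives run, except TAPBP in IM-DSF against IM with TPM rescaling (0.02) and NLRC5 in IM-DSF against CTR with median-of-ratios or trimmed-mean factors (down to -0.01). HLA-E in IM-DSF against CTR fell below the size rule with those factors (0.98). The departure of HLA-C did with them and with TPM rescaling, leaving 0 members past the rule. With only genes free of same-strand overlap, HLA-B, HLA-C and TAP2 were left out. The count for the departure was then 0, and the call of HLA-B in IM-DSF against CTR was not covered by that setting. Of the other named genes, HLA-DOB, SOCS3, RNF185, MARCHF9 and MR1 passed the size rule in further contrasts with a pseudocount of 0.1 (9 differences), and all of these but SOCS3 with TPM rescaling (6). Some counts over all genes moved by more than 1.5 times, in the settings given next. The order of the counts is DSF against CTR, IM against CTR, then IM-DSF against CTR, next IM-DSF against IM, after it IM-DSF against DSF, and last the departure from additivity. They were 123, 267, 471, 191, 261 and 337 as reported. They were 309, 600.0, 894, 355, 540.0 and 654 with a pseudocount of 0.1, and 252, 475, 779, 296, 466 and 536 with TPM rescaling. They were 53, 114, 228, 89, 122 and 132 with a mean of at least 5 FPKM, and 52, 131, 233, 78, 116 and 143 with protein-coding genes without same-strand overlap, an alternative chosen after seeing the data; both test fewer genes. With no filter the departure count was 517. The FPKM summed to between 277648 (IM-DSF) and 287546 (IM) a library, so TPM rescaling enlarges all values while the pseudocount stays at 1. Like the smaller pseudocount, this shrinks the differences of low genes less, and its part in the higher counts was not tested. The sum over rows of a repeated symbol left all 9 genes as they were, since each has 1 row. No paired analysis was possible because each group has 1 library. Depth limits TAP1 and NLRC5 most, with 121 and 153 approximate fragments in their lowest libraries.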

Other observations

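SOCS1, an inhibitor of JAK kinases that restrains interferon signalling, had a mean under 1 FPKM, outside the filter, and was chosen after its values were seen. It had 0.833 FPKM in DSF, 1.03 in IM, 0.131 in IM-DSF and 1.97 in CTR. IM-DSF was at 0.0666 times CTR (0.00636 to 0.208), on few fragments. Among the class II genes, HLA-DRA stayed at or below 0.294 FPKM and the class II activator CIITA at or below 0.0754 FPKM in every library, beside CD74 at 2.58 to 7.36 FPKM.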
